A study of Mus musculus with 13 samples.

Results

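Goblet cell and mucin genes were followed across normal and tumour epithelium of the mouse small intestine. The set was given by symbol: Muc2, Muc3, Muc13, Tff3, Fcgbp, Agr2, Spdef, Zg16, Clca1 and Retnlb, 10 genes in all. A gene was measured where a probe set of the array carried its symbol and no other, which held for 9 of the 10, out of 19938 genes so covered and with 1 probe set each. The 3 probe sets that list Fcgbp, the IgG Fc binding protein of mucus, carry other symbols too, so no value is given for it. RNA from mice with an Apc mutation and FP transgenes was hybridised to Affymetrix Mouse Gene 1.0 ST arrays, 1 per sample. Normal epithelium next to adenomas was labelled as FP-low (n = 6) or FP-high (n = 4), and adenomas formed the remaining group (n = 3), 13 arrays in all. All 3 groups came from the same kind of mouse, so no group lacked the Apc mutation or the transgenes. The meaning of FP, its promoter, the Apc allele, the age of the mice and the sharing of mice between arrays are not given in the labels. P-values therefore reflect array-to-array spread, which may in part be technical. Material was taken crypt by crypt through 40 µm glass capillaries, and the RNA was amplified before labelling. By its title the study looked for age-related expression changes that come before intestinal tumours.

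Goblet cells are the mucus-secreting cells of the intestinal epithelium and differentiate from crypt progenitors when Notch signalling is low and the transcription factor Atoh1 is on. Their product is a gel built on the polymeric mucin Muc2, packed into granules with smaller secreted proteins. Membrane-bound mucins such as Muc3 and Muc13 are made by absorptive cells as well and coat the apical surface. In bulk samples such as these, fewer cells of a type and less RNA per cell cannot be told apart.

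One normal library, FP-high replicate 1, differed from all others in its whole profile. Its log2 levels had an SD of 1.21 across the 23410 probe sets tested, compared with 1.89 to 2.10 elsewhere, and its median correlation with them was 0.762, while pairs among the other 12 correlated at 0.921 to 0.985. The plot of differences therefore shows each member with and without it. The labelled tissue was checked on marker lists. The mean log2 level of 13 enterocyte markers was 6.71 to 10.60 in the other 12 arrays and 6.47 in FP-high replicate 1. That of 11 stromal markers was 4.23 to 5.04 in all 13, and the array medians were 4.555 to 4.648. Of the stromal markers Dcn was called as higher in adenomas against normal (2.36 ± 0.45, and 2.40 without FP-high replicate 1), and Cdh5 only without that array (0.86, adjusted p = 0.014). Xist, the X-inactivation RNA of female cells, was high (8.64 to 9.71) in 5 arrays, the 3 adenomas, FP-low replicate 6 and FP-high replicate 4, and at most 3.61 in the other 8. All 3 adenomas but only 2 of 10 normal arrays were thus Xist-high, which bears on each adenoma comparison, those of Muc3, Muc13, Fut2 and Tff2 included. The part of sex was not tested. Levels of different genes come from different probes and are not compared with each other.

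None of the 9 genes passed the test in any comparison. With limma and Benjamini-Hochberg adjustment over all 23410 tested probe sets, an adjusted p under 0.05 was reached by 0 of 9 between FP-high and FP-low samples, where it was reached by 0% of all tested probe sets. Between adenomas and the average of both normal groups the count was 0 of 9 against a background of 0.910%, against FP-low alone 0 of 9 against 0.551%, and against FP-high alone 0 of 9 against 0.765%. At an unadjusted p under 0.05 the count was also 0 of 9 in each of the 4 comparisons, where 12.7%, 10.6%, 7.45% and 15.7% of all tested probe sets lay. The smallest adjusted p of a member was 0.331, that of Muc2 in adenomas against FP-high samples. Without FP-high replicate 1 no member passed either, where 0%, 2.08%, 1.58% and 1.10% of tested probe sets passed, but several estimates changed sign. An unadjusted p under 0.05 was then reached by 3 of 9 members in FP-high against FP-low (8.53% of all tested), 3 of 9 in adenoma against normal (17.0%), 2 of 9 against FP-low (14.6%) and 2 of 9 against FP-high (16.0%). All log2 differences are given ± SE with the limma adjusted p. The fit shares 1 spread per probe set over the 3 groups, so FP-high replicate 1 also enters the SE of adenomas against FP-low. For Tff3 that SE was 0.86 with it and 0.18 without it, at the same difference of -0.14.

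**Figure D1:**
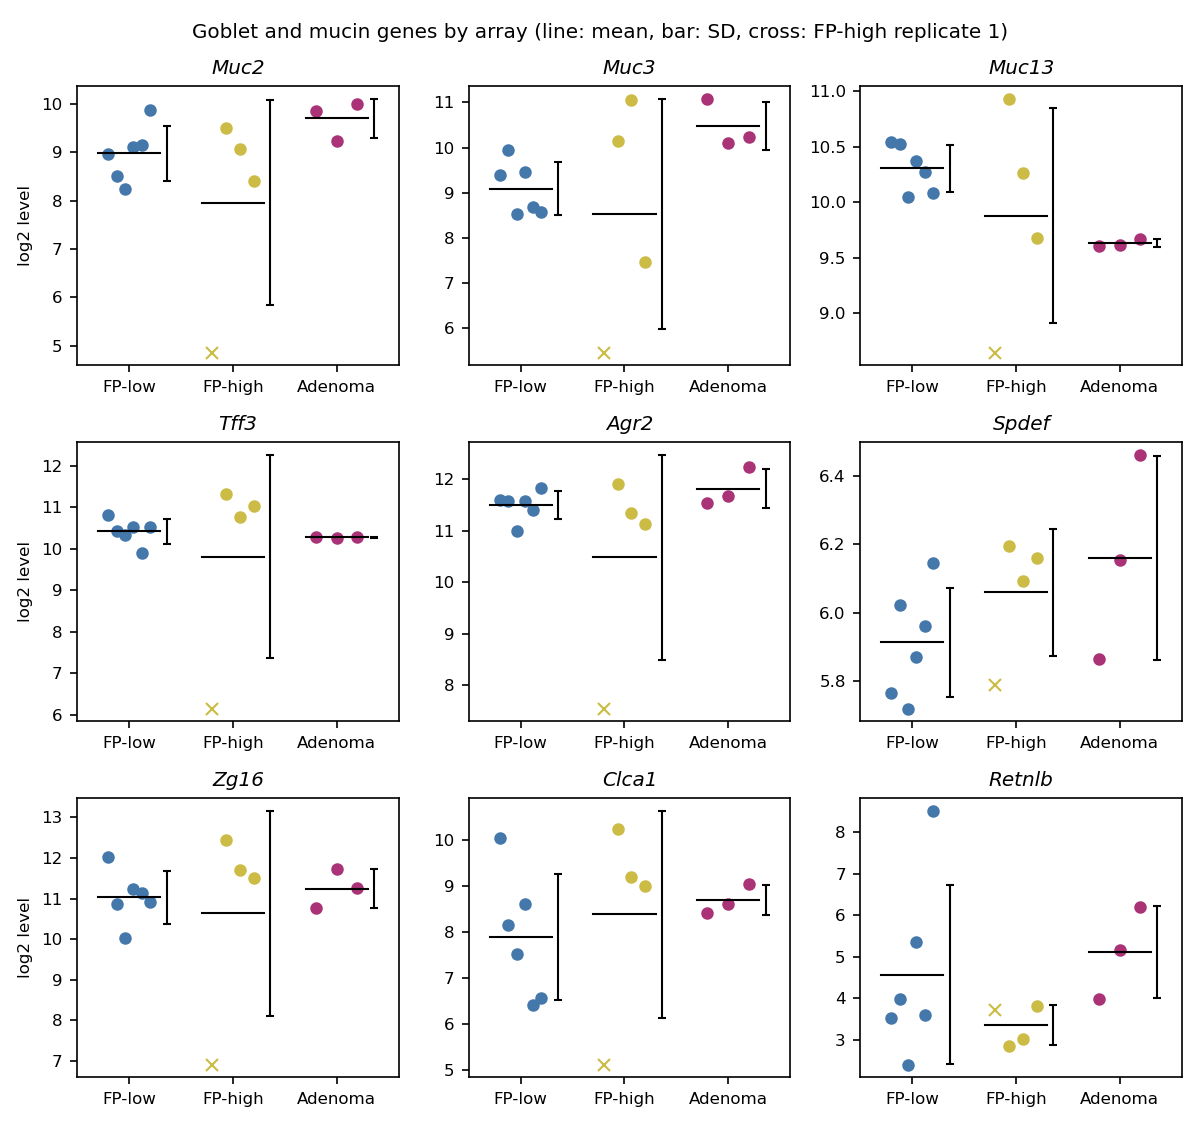
Each panel plots 1 gene, with the log2 level on the vertical axis and the 3 groups on the horizontal axis. Points are arrays, black lines are group means, bars are SDs, and the cross is FP-high replicate 1, which lies below the other 3 FP-high arrays in every panel except that of Retnlb.

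Muc2 encodes the gel-forming mucin of intestinal mucus. Its log2 level in FP-low samples ran from 8.25 through a median of 9.03 to 9.88. In FP-high samples it was 4.86, 9.49, 9.07 and 8.41 in replicates 1 to 4, and in adenomas 9.85, 9.24 and 10.005. Adenomas lay in the upper part of the normal range or just above it, and FP-low replicate 6 (9.88) and FP-high replicate 2 (9.49) lay among them. Adenomas differed from normal epithelium by 1.23 ± 0.73 (adjusted p = 0.560). Leaving out FP-high replicate 1 gave 0.72 ± 0.32 (adjusted p = 0.286). FP-high and FP-low samples differed by -1.02 ± 0.71 with all arrays (adjusted p = 0.466) and by 0.02 ± 0.34 without replicate 1, with a 95% interval from -0.72 to 0.75.

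Agr2 is a protein disulphide isomerase of the endoplasmic reticulum that is needed to fold Muc2. Its level was 11.00, 11.58 and 11.83 at the lowest, median and highest FP-low array. FP-high replicates 1 to 4 read 7.54, 11.92, 11.35 and 11.14, and adenomas 11.55, 11.67 and 12.25. All groups overlapped, with adenoma replicate 3 the highest of the 13. Adenomas differed from normal by 0.83 ± 0.66 (adjusted p = 0.635), and by 0.34 ± 0.21 without FP-high replicate 1 (adjusted p = 0.441). FP-high samples differed from FP-low ones by -1.01 ± 0.65 (adjusted p = 0.441), and by -0.03 ± 0.22 without it, with a 95% interval from -0.51 to 0.45. Spdef, an Ets-family transcription factor that drives goblet cell maturation, varied little between arrays. It ran from 5.72 through 5.91 to 6.14 in FP-low samples, was 5.79, 6.20, 6.09 and 6.16 in FP-high samples and 5.86, 6.15 and 6.46 in adenomas. Its SD over the FP-low arrays, 0.16, was larger than that of only 23.5% of all tested probe sets. It differed by 0.15 ± 0.15 in FP-high against FP-low samples (0.24 ± 0.14 without replicate 1) and by 0.17 ± 0.15 in adenomas against normal (0.13 ± 0.13). Its 95% interval without replicate 1 reached from -0.07 to 0.54 in FP-high against FP-low samples and from -0.16 to 0.42 in adenomas against normal.

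Muc2 and Agr2 had the highest Pearson correlation of the 36 pairs of members, 0.799 over the 12 arrays without FP-high replicate 1 (Spearman's rho 0.734). Within the 6 FP-low arrays r was 0.774. The bases before an annotated transcription start are shown for both genes, for Spdef and for Muc3, whose r with Muc2 was 0.480 and 0.478. For Spdef this start lies inside the span of the gene (27714446 to 27731003 on chromosome 17), so its window is not upstream of the whole gene. Sequences are from RefSeq on GRCm38.p6, 5′ to 3′ on the gene's strand, 250 bases each. Capitals mark matches on either strand to TTTAT (the core bound by Cdx factors), GATAA (the core bound by Gata factors) and CAGNTG (an E-box form). TTTAT and GATAA can overlap, and their letters are then joined in 1 run. Of the 9 measured members 5 are in the promoter table, and the window of Muc13, whose r with Muc2 was -0.184, is not shown.
Muc2 at chr7:141690090-141690339, plus strand: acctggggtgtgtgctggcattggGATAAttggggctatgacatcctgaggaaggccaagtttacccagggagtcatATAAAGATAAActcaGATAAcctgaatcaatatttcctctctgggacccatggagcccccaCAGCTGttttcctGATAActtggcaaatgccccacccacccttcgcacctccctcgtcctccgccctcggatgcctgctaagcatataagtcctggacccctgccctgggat
Agr2 at chr12:35992675-35992924, plus strand: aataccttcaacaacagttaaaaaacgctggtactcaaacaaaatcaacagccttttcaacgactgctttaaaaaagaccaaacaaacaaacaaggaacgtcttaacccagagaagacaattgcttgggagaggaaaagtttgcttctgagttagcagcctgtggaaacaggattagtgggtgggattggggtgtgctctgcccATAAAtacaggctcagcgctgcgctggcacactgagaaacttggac
Spdef at chr17:27728952-27729201, minus strand: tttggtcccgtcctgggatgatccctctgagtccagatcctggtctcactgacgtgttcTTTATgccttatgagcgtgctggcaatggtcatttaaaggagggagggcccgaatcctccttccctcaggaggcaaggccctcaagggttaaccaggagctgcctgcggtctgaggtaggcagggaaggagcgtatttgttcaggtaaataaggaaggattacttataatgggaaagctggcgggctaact
Muc3 at chr5:137166047-137166296, minus strand: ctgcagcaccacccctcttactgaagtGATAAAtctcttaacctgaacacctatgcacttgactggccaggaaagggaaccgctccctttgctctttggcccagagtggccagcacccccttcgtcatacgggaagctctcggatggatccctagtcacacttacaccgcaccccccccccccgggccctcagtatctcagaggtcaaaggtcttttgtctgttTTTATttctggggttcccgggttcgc
The Muc2 window held 4 matches to GATAA, 2 to TTTAT and 1 to CAGNTG. Agr2 and Spdef held 1 match each, both to TTTAT, and Muc3 held 2 to TTTAT and 1 to GATAA. Over 32851 windows of the same length, 37.3% held TTTAT, 22.6% GATAA and 44.8% CAGNTG at least once, so a single match is common. A match is a description of the letters and not of binding.

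Tff3, the trefoil peptide secreted with Muc2, gave the tightest adenoma values of the set. Adenomas read 10.28, 10.26 and 10.28, FP-low samples 9.88, 10.47 and 10.80 at the lowest, median and highest, and FP-high replicates 1 to 4 6.14, 11.31, 10.75 and 11.02. FP-high replicates 2 to 4 lay above 5 of the 6 FP-low arrays and above all 3 adenomas. With all arrays FP-high samples differed from FP-low ones by -0.61 ± 0.78 (adjusted p = 0.674). Without replicate 1 the difference was 0.62 ± 0.18, the reverse direction, at an unadjusted p of 0.00521 and an adjusted p of 0.359. Adenomas against FP-high samples turned likewise, from 0.47 ± 0.93 to -0.75 ± 0.21 (adjusted p = 0.117). In the latter the groups did not overlap with adenomas lower for Tff3 and Muc13, 2 of 9 members, as for 15.6% of tested probe sets.

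Zg16 is a lectin of mucus that binds bacterial cell walls, and Clca1 a secreted metalloprotease that processes Muc2. Zg16 was 10.02, 11.02 and 12.02 at the lowest, median and highest FP-low array, 6.90, 12.45, 11.71 and 11.50 in FP-high samples and 10.76, 11.73 and 11.26 in adenomas. Clca1 spanned 6.41 to 10.06 in FP-low samples with a median of 7.84, a 12.5-fold range. It read 5.11, 10.24, 9.21 and 8.998 in FP-high samples and 8.41, 8.61 and 9.05 in adenomas. For both genes the adenomas lay within the span of the FP-low arrays. Without FP-high replicate 1, FP-high samples differed from FP-low ones by 0.86 ± 0.37 for Zg16 (adjusted p = 0.556) and by 1.59 ± 0.67 for Clca1 (adjusted p = 0.544). With all arrays the differences were -0.39 ± 0.85 and 0.50 ± 0.91. Tff3, Zg16 and Clca1 were the 3 of 9 members with an unadjusted p under 0.05 in that comparison without replicate 1, where 8.53% of all tested probe sets had one and 0 of 23410 passed after adjustment. Clca1 varied more between FP-low arrays (SD 1.37) than 99.5% of tested probe sets.

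Retnlb encodes resistin-like molecule beta, a goblet cell protein induced by microbes and by type 2 cytokines. It was dim in most arrays and high in 1 normal array. FP-low replicates 1 to 6 read 3.53, 3.97, 2.40, 5.36, 3.602 and 8.51, a 69.3-fold range with a dim lower end. Its SD of 2.16 exceeded that of 99.98% of tested probe sets. FP-high samples were at 3.72, 2.85, 3.01 and 3.81, and adenomas at 3.97, 5.17 and 6.18. All adenomas lay above all FP-high arrays, as did 6.74% of tested probe sets (8.30% without FP-high replicate 1), but not above the FP-low ones. Adenoma replicate 1 (3.97) and FP-high replicate 4 (3.81) were close, and both lay under their array medians (4.598 and 4.648). The difference of FP-high from FP-low samples was -1.22 ± 0.93 (adjusted p = 0.494), -1.34 ± 1.06 without FP-high replicate 1, and -0.43 (adjusted p = 0.689) without FP-low replicate 6. Adenomas differed from normal by 1.15 ± 0.96 (adjusted p = 0.643), and by 1.21 ± 1.01 without FP-high replicate 1. In replicate 6, Agr3, the paralog of Agr2, was also at its highest level of the 10 normal arrays (5.44), near the adenomas (5.33, 5.02 and 4.24); it was picked out after its values were seen. Replicate 6 and the adenomas were among the 5 Xist-high arrays, and the remaining one, FP-high replicate 4, had Retnlb at 3.81.

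The membrane mucins were the members whose adenoma and FP-low arrays did not overlap. Muc3 sits in the brush border of absorptive cells. It was 8.52, 9.03 and 9.94 at the lowest, median and highest FP-low array, 5.44, 10.14, 11.06 and 7.47 in FP-high samples, and 11.08, 10.11 and 10.23 in adenomas. All 3 adenomas lay above all 6 FP-low arrays, as did 3.67% of tested probe sets, while FP-high replicates 2 and 3 (10.14 and 11.06) lay within the adenoma range and replicates 1 and 4 below it. Its difference from the normal average was 1.67 ± 0.87 with all arrays (adjusted p = 0.520) and 1.15 ± 0.60 without FP-high replicate 1 (adjusted p = 0.362). The spread among FP-high replicates 2 to 4 alone was large, with an SD of 1.87.

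Muc13, a shorter transmembrane mucin of the intestinal surface, was the only member called under any alternative run. FP-low samples ran from 10.05 through 10.32 to 10.55, FP-high replicates 1 to 4 read 8.65, 10.93, 10.26 and 9.67, and adenomas 9.61, 9.62 and 9.67. All 3 adenomas lay below all FP-low arrays, as did 5.64% of tested probe sets. They also lay below FP-high replicates 2 to 4, as did 3.28% of tested probe sets against all 9 normal arrays, although the highest adenoma (9.672) and replicate 4 (9.675) were almost equal. The difference from normal epithelium was -0.46 ± 0.34 (adjusted p = 0.614), and -0.66 ± 0.21 without FP-high replicate 1 (adjusted p = 0.149, 95% interval from -1.13 to -0.20). It passed with array weights (-0.74, adjusted p = 0.036), where 4.93% of all tested probe sets passed. It also passed against FP-low samples when only these 2 groups entered the fit (-0.67, adjusted p = 0.046), where 1.47% did. Over the alternatives the adjusted p of these comparisons ran from 0.036 to 0.844 and from 0.046 to 1.

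**Figure D2:**
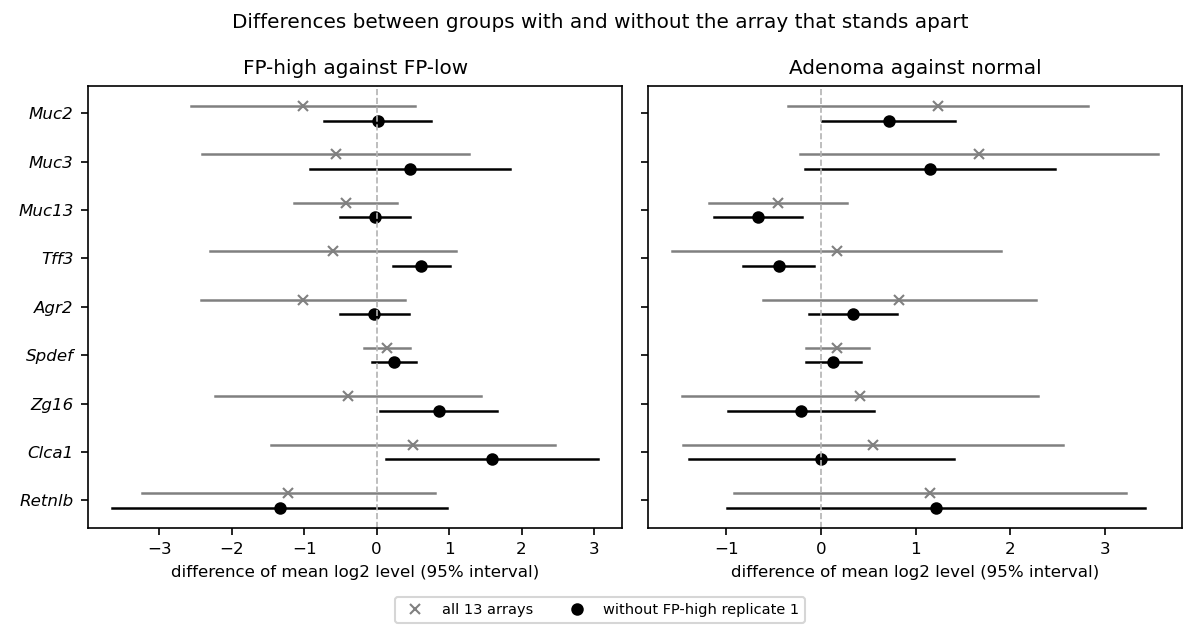
Differences of mean log2 level are on the horizontal axis and genes on the vertical axis, for FP-high against FP-low (left) and adenoma against normal (right). Grey crosses use all 13 arrays and black points leave out FP-high replicate 1, each with its 95% interval from limma. The median difference of the 9 members went from -0.56 to 0.24 on the left and from 0.55 to 0.13 on the right.

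As a set, the 9 genes gave a median difference of -0.56 in FP-high against FP-low samples, with 7 of 9 below 0. Over all tested probe sets the median was 0.05, with 56.3% above 0. Without FP-high replicate 1 the median of the 9 was 0.24 with 6 of 9 above 0, beside 0.02 and 54.6% over all tested. In adenomas against normal epithelium the median was 0.55 with 8 of 9 above 0, beside -0.09 and 38.1% over all tested. Without that array it was 0.13 with 6 of 9 above 0, beside -0.07 and 37%. FP-high replicate 1 thus decides the direction of the first median and most of the size of the second. The 9 genes were read on the same arrays, so these counts are not independent.

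Correlations between members differed from pair to pair. None of the 36 pairs had an adjusted p under 0.05 by r or by rho in a permutation test over the 12 arrays without FP-high replicate 1, and the lowest for r was 0.0673, that of Muc2 and Agr2. Values among Tff3, Zg16 and Clca1 were r = 0.721 (rho 0.685) for Tff3 and Clca1, 0.718 (rho 0.804) for Zg16 and Clca1, and 0.633 (rho 0.517) for Tff3 and Zg16. Among Muc2, Agr2, Spdef and Retnlb r ran from 0.441 to 0.799, and between these and the former 3 from -0.370 to 0.387. Leaving out the 2 arrays farthest from the median of the first gene of a pair, r was 0.624 for Muc2 and Agr2, 0.657 for Zg16 and Clca1, and 0.421 for Tff3 and Clca1, but 0.110 for Agr2 and Spdef, and -0.005 for Muc2 and Spdef, which therefore rest on those arrays. These coefficients describe 36 pairs in arrays that share groups and amplification, and the grouping of genes here was chosen after the values were seen.

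**Figure D3:**
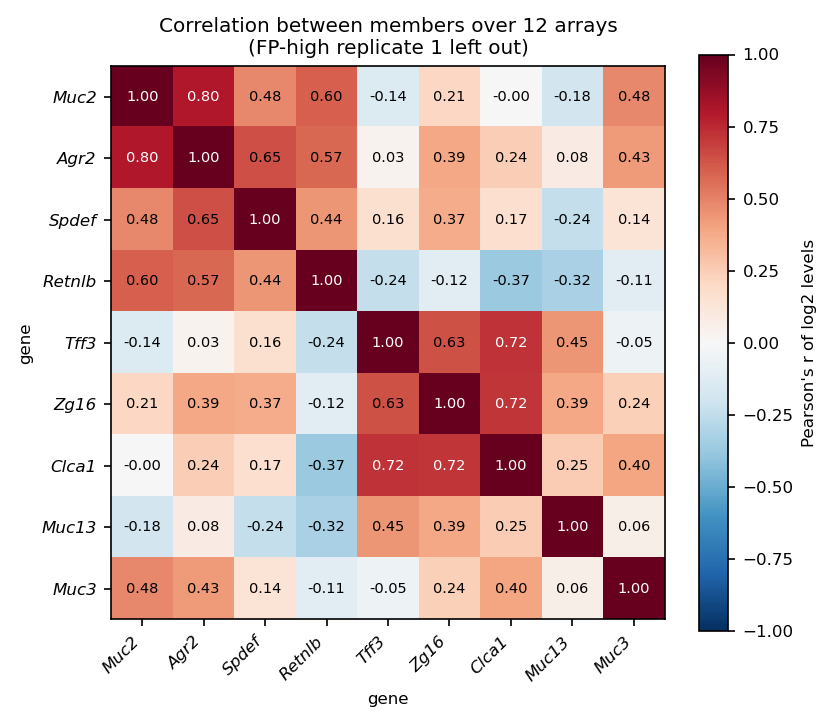
The grid gives Pearson's r between log2 levels of each pair of genes over 12 arrays, from -1 (blue) to 1 (red). The block at the upper left holds Muc2, Agr2, Spdef and Retnlb, and the block in the middle holds Tff3, Zg16 and Clca1, at 0.63 to 0.72.

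Clca1 and Zg16 had the highest correlations with the markers of absorptive cells. The mean of 13 enterocyte markers per array correlated with Clca1 at r = 0.769 (rho 0.790) and with Zg16 at r = 0.731 (rho 0.699) over the 12 arrays, and within the 6 FP-low arrays at 0.796 and 0.661. In a permutation test adjusted over the 9 members p was 0.034 by r and 0.033 by rho for Clca1, and 0.036 and 0.066 for Zg16. Among the marker lists this test was run for enterocytes alone, with arrays shuffled across groups, and the adjustment covers no other list. Without the 2 arrays farthest from the median of the enterocyte markers r was 0.765 for Clca1 and 0.849 for Zg16. Tff3 had r = 0.557 (rho 0.580, adjusted p 0.15 and 0.155 by the same permutation test) and Retnlb -0.522. Muc2 (-0.103), Agr2 (0.080) and Spdef (0.133) were near 0 by comparison over the 12 arrays. Without the same 2 arrays r was 0.192 for Muc2, 0.506 for Agr2, 0.260 for Spdef, 0.714 for Tff3 and -0.031 for Retnlb. For Muc3 and Muc13 it was 0.299 and 0.637. The low r of Agr2 and the negative r of Retnlb therefore rest on those 2 arrays. Muc3 had r = 0.544 over the 12 arrays and 0.869 within the FP-low ones, and Muc13 0.478 and 0.977. FP-low arrays ranged from 6.71 to 9.32 in the marker mean and FP-high ones from 6.47 to 10.60, so this mean was also higher in FP-high replicates 2 and 3 (9.998 and 10.60) than in any other array. All 13 markers lay above 0 in FP-high against FP-low samples, with a median difference of 0.89, or 1.58 without replicate 1. In that comparison 0 of 13 were called, where 0% of all tested probe sets passed. The part of the marker mean in the group differences of Clca1 and Zg16 was not tested. Over the same 12 arrays, r of members with the other marker lists ran from -0.716 (Muc13, stroma) to 0.795 (Muc3, distal small intestine). With proximal small intestine markers it was 0.688 for Clca1, 0.703 for Zg16 and 0.742 for Tff3. These r were not tested.

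**Figure D4:**
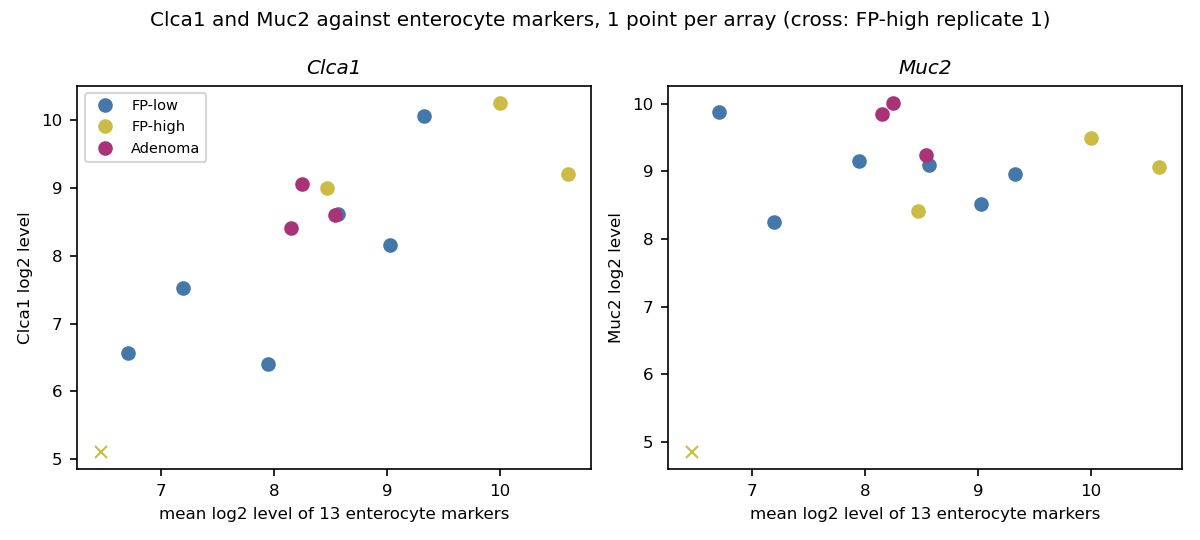
The horizontal axis is the mean log2 level of 13 enterocyte markers and the vertical axis the log2 level of Clca1 (left) or Muc2 (right), with 1 point per array coloured by group and a cross for FP-high replicate 1. Clca1 goes up with the markers over the other 12 arrays (r = 0.769), whereas Muc2 does not (r = -0.103).

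Genes that glycosylate mucins added 1 call in adenomas. Of 37 measured genes for O-glycosylation, Fut2, the fucosyltransferase that makes H antigen on mucin chains, rose by 1.07 ± 0.18 in adenomas against normal epithelium (adjusted p = 0.014) and 0 fell. It read 5.30, 5.28 and 5.41 in adenomas and 4.64 or less in all 10 normal arrays. The call ended without any 1 adenoma array (adjusted p = 0.081, 0.076 and 0.068) and with the replicate number as a block (1.07, adjusted p = 0.182). C1galt1, which builds the core 1 O-glycan, was at 9.99, 9.07 and 9.09 in adenomas and at 8.61 or less in normal arrays. It was called once FP-high replicate 1 was left out (1.499, adjusted p = 0.022), and not before (1.92, adjusted p = 0.241). Of all tested probe sets 0.910% were called in adenomas against normal with all arrays, and 2.08% without that array. The share of all tested probe sets with adenomas above every normal array is not given here. Without FP-high replicate 1 Fut2 differed by 1.10 (adjusted p = 0.0074). With all arrays it was also called against FP-low and FP-high samples taken singly. The list had a median of 0.13 with 24 of 37 above 0. In FP-high against FP-low samples its smallest p were those of B4galt4 (0.52 ± 0.17, adjusted p = 0.318), Chst5 (0.37 ± 0.14, adjusted p = 0.376) and Cmas (-0.88 ± 0.39, adjusted p = 0.390).

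Of 35 other goblet cell markers 1 rose in adenomas and 0 fell. Of all tested probe sets 0.910% were called there, and 2.08% without FP-high replicate 1. The marker that rose was Tff2, a trefoil peptide best known from gastric glands, by 1.87 ± 0.35 (adjusted p = 0.026). Adenomas read 5.56, 7.41 and 6.995, FP-high replicate 1 5.87, and the other 9 normal arrays 4.91 or less, so that replicate 1 overlapped them. Without that array the difference was 2.03 (adjusted p = 0.0048). The Tff2 call ended without adenoma replicate 2 (adjusted p = 0.201) or 3 (adjusted p = 0.123), after quantile normalization (1.54, adjusted p = 0.272) and with the replicate block (1.78, adjusted p = 0.280). Muc6, a secreted mucin of the same gastric glands, was at 7.28, 6.13 and 4.41 in adenomas. It was called (1.91, adjusted p = 0.046) without FP-high replicate 1, which read 5.35, above every other normal array, and adenoma replicate 3 overlapped the normal arrays. The remaining mucins were not called: of 12 measured family members 6 were above and 6 below 0 in adenomas against normal, with a median of 0.03, and the smallest p after Muc6 were those of Muc19 (0.39 ± 0.16) and Muc4 (0.77 ± 0.33). In FP-high against FP-low samples they were those of Muc16 (0.40 ± 0.22), Muc5ac (0.22 ± 0.13) and Muc19 (0.24 ± 0.15), at adjusted p of 0.405, 0.419 and 0.442. Among 16 paralogs of the members only Tff2 was called in adenoma against normal with all arrays. Clca3b, a relative of Clca1, was at 9.38, 8.67 and 10.65 in adenomas and at 10.72 or more in all normal arrays but FP-high replicate 1 (7.38). It differed by -1.27 ± 0.63 (adjusted p = 0.506), and by -1.70 without that array (adjusted p = 0.015). Clca1 itself differed by 0.0035 ± 0.64 in the same fit. Clca4a (0.97) and Clca4b (0.89) lay above 0 there and were not called. In adenomas against FP-low alone, without FP-high replicate 1, Clca4a was called as higher (1.63, adjusted p = 0.026), as was Tff2. In that fit 1.58% of all tested probe sets were called. Called as lower there were Clca3b (-2.12, adjusted p = 0.0058) and Clca3a2 (-1.44, adjusted p = 0.026). Clca4b was higher by 1.59 and not called (adjusted p = 0.064). In FP-high against FP-low samples Clca3b (-1.70 ± 0.62), Clca3a2 (-0.86 ± 0.32) and Clca3a1 (-0.67 ± 0.28) had the smallest p of the paralogs, none past the threshold. Clca genes are close copies, so their probe sets may share signal. Without FP-high replicate 1 the goblet list also gained Fxyd3 as higher (2.38, adjusted p = 0.043) and the chemokine Ccl6 as lower (-2.04, adjusted p = 0.0065). Its smallest p in FP-high against FP-low samples were those of Ccl9 (-1.03 ± 0.35), Capn9 (0.45 ± 0.16) and Pdia5 (-0.52 ± 0.22), at adjusted p of 0.349, 0.359 and 0.389.

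No regulator of goblet fate was called among 25 measured genes, which had a median of -0.08 in adenomas against normal. Those with the smallest p were the secretory-cell factor Creb3l1 (0.40 ± 0.15), Atoh1, the switch to the secretory lineage (0.90 ± 0.34), and Sox9 (0.70 ± 0.26), at adjusted p of 0.332, 0.350 and 0.350. Atoh1 was at 5.68, 5.80 and 6.64 in adenomas and 4.22 to 5.83 in normal arrays, so the groups overlapped. In FP-high against FP-low samples the regulators with the smallest p were Nfia (-1.18 ± 0.34, adjusted p = 0.273), Elf3 (-0.71 ± 0.27) and Ehf (-1.17 ± 0.49), which read -0.75, -0.42 and -0.49 without FP-high replicate 1. Of 43 genes for mucin folding and granule export 0 were called in any of the 4 comparisons with all arrays. Tgm2 was called as lower in adenomas against normal (-0.55, adjusted p = 0.027) without FP-high replicate 1, where 2.08% of all tested probe sets were called. With all arrays the adenoma median of the 43 was 0.07. The smallest p were those of the chloride channel Ano1 (0.75 ± 0.19, adjusted p = 0.124), Rab27b of secretory granules (0.87 ± 0.23, adjusted p = 0.142) and Agr3 (1.17 ± 0.42, adjusted p = 0.332). In FP-high samples 32 of these 43 lay below 0 with a median of -0.27, and 26 of 43 with a median of -0.06 without replicate 1. Dnajc10 (-1.16 ± 0.36) and Pdia4 (-1.002 ± 0.32), which act on disulphide bonds in the endoplasmic reticulum, and the export receptor Mia3 (-0.87 ± 0.30) had the smallest p there, none of them past the threshold. In FP-high against FP-low samples 0 genes of the 6 pathway lists were called, with or without replicate 1. The same held for 0 of all 23410 tested probe sets, so this count is not particular to the lists.

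Some markers of other cells and of gut position were called in adenomas against normal. With all arrays 2 of 12 distal small intestine markers were called as higher, Fabp6 (6.39 ± 0.85, and 6.14 without FP-high replicate 1) and Slc10a2 (3.19 ± 0.17, and 3.25), and the mean of the list was 6.24 to 6.81 per adenoma array against 4.84 to 6.28 in normal arrays. Of 13 proximal markers 0 were called with all arrays and Adh1 as lower without FP-high replicate 1, with a mean of 5.91 to 6.41 in adenomas and 5.85 to 7.46 in normal arrays. Of 11 Paneth cell markers 0 were called with all arrays, and 3 as lower (Lyz1, Lyz2 and Defa24) without FP-high replicate 1. Their array means were 7.86 to 8.53 in adenomas, 8.63 to 9.66 in FP-low and 6.58 to 9.50 in FP-high samples. All 13 markers of dividing cells lay below 0 in FP-high against FP-low samples and 0 were called, where 0% of all tested probe sets passed. Their mean was 5.49 to 6.94 in FP-high, 6.999 to 7.53 in FP-low and 6.92 to 7.29 in adenoma arrays. Of 10 crypt stem cell markers Lgr5 was called as higher (1.62 ± 0.33, adjusted p = 0.042). Without FP-high replicate 1 Prom1 was called as higher too and Olfm4 as lower (-3.12, adjusted p = 0.034). Of 15 enteroendocrine markers Nts was called as higher (2.81 ± 0.48, adjusted p = 0.0145), and of 11 lymphocyte markers Ptprc (0.79 ± 0.16, adjusted p = 0.039), while 10 of these 11 lay below 0. The part of position, of the other cell types or of dividing cells in the values of the goblet and mucin genes was not tested.

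The genes whose levels were most like the mean of the 9 standardised members over the 12 arrays were Tma7 (r = 0.919), Btbd9 (0.875), F11r (0.867), Ms4a8a, Tmem219 and Fam114a1 (each 0.866), Rpp14 (0.863) and Wdr70 (0.856), the highest of 9913 brighter genes. With FP-high replicate 1 included r went from 0.329 for Fam114a1 to 0.986 for Tma7. No r is tested, since they are the highest of many.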

How the data were processed

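Per the labels' protocols, RNA of picked crypts was amplified and labelled with NuGEN kits and hybridised to 13 arrays. The authors deposited log2 levels of 35556 probe sets, made with the Affymetrix Expression Console and Transcriptome Analysis Console, per the submitters' processing notes. Versions, background correction and normalization were not stated there, and the log2 scale was read from the values (0.888 to 14.2). Probe sets were named from the platform annotation. The 23410 with a symbol were tested (1621 of them with several symbols) and 12146 without one were not.

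Group means were compared with limma 3.58.1 in R 4.3.3 (lmFit, eBayes, two-sided, all 13 arrays, no covariate). Benjamini-Hochberg adjustment covered all 23410, and an adjusted p under 0.05 was a call. Gene lists were read on the brightest 1-symbol probe set of each gene. The text names every member, list genes that were called in a comparison or else had the smallest p, and the 8 genes most like the members. The members and lists were chosen with earlier results of these data known.

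Adenoma and FP-high arrays of the same replicate number deviated together from their group means (r = 0.233, 0.102 and 0.220, all over 0.1), so the number was also used as a block. FP-low arrays showed no such pattern as a group, with r over 0.1 only for replicate 2 with FP-high. Their r was -0.361, 0.178, -0.286 and 0.09 with FP-high arrays, and -0.116, 0.061 and -0.062 with adenomas. The block nevertheless covered all 13 arrays, FP-low ones included. This pairing is read from the data and not from the labels. Arrays of unlike number were not compared, so these r have no baseline. The adenomas were all Xist-high and the FP-high arrays of the same numbers were not, so the paired arrays differ in Xist. Alternatives were quantile normalization, a filter on dim probe sets, all probe sets, array weights, another variance model, only the groups compared, the block, and each of the 13 arrays left out. The averaging of a gene's probe sets gave no other value, since each member had 1. The fit was tested on simulated data.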

Additional observations from a re-analysis of the deposited data

Results flagged for a closer look

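In Tff3, FP-high replicate 1 lay far from the other 3 arrays of its group: its log2 level was 6.14 and the nearest of the others was at 10.75, a gap of 0.891 of the group's range, above Dixon's critical value for 4 samples. By chance about 1 in 20 groups would show such a gap, and 9 genes in 2 groups were examined. That rate is for independent groups, whereas this array differed over its whole profile. In Zg16 and Agr2 it also lay far from its group, at 6.90 and 7.54, with the nearest array at 11.50 and 11.14. The array's log2 SD over all tested probe sets was 1.21.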

How the results depend on the processing

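The count of members called was 0 of 9 in all 4 comparisons and became 1, Muc13, in adenoma against normal with array weights (4.93% of all tested passed) and in adenoma against FP-low with only the groups compared (1.47%). Leaving out each array in turn kept it at 0, and so did the replicate block, which with its paired numbers changed no call of a member. Quantile normalization turned FP-high against FP-low for Muc13 (0.28), Tff3 (0.0245) and Zg16 (0.41), adenoma against normal for Spdef (-0.0936), adenoma against FP-low for Tff3 (0.15) and adenoma against FP-high for Spdef (-0.38). Array weights turned FP-high against FP-low for Muc2 (0.0178), Muc3 (0.41), Muc13 (0.0313), Tff3 (0.52) and Zg16 (0.75), adenoma against normal for Tff3 (-0.45), Zg16 (-0.15) and Clca1 (-0.11), and adenoma against FP-high for Tff3 (-0.71), Zg16 (-0.52) and Clca1 (-0.83). The replicate block turned Clca1 in FP-high against FP-low (-0.20). Quantile normalization without FP-high replicate 1, chosen after seeing the data, turned FP-high against FP-low for Muc2 (0.0864), Muc3 (0.54), Muc13 (0.11), Tff3 (0.72), Agr2 (0.0923) and Zg16 (0.99), adenoma against normal for Tff3 (-0.22), Zg16 (-0.0795) and Clca1 (-0.0078), adenoma against FP-low for Tff3 (0.14), and adenoma against FP-high for Tff3 (-0.58), Spdef (-0.14), Zg16 (-0.57) and Clca1 (-0.82). Leaving out 1 array, FP-high against FP-low ranged from -1.53 to 0.0162 for Muc2, -1.41 to 0.46 for Muc3, -1.11 to 0.62 for Tff3, -0.99 to 0.86 for Zg16 and -0.12 to 1.59 for Clca1. Adenoma against normal ranged from -0.45 to 0.42 for Tff3 and -0.21 to 0.71 for Zg16, and adenoma against FP-low from -0.0224 to 0.46 for Zg16. Adenoma against FP-high ranged from -0.75 to 0.97 for Tff3, -0.64 to 1.21 for Zg16, -0.79 to 0.92 for Clca1, -0.66 to 0.11 for Muc13 and -0.0511 to 0.25 for Spdef. The cause of these turns was not tested, and none of the values that turned was called. The filter on brighter probe sets dropped Retnlb. The number of arrays limits the precision.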
